A study of Rattus norvegicus with 6 samples.

Results

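Sets of transcripts that share every intron but not their ends were collected from a transcript assembly of purified rat beta cells. A set holds at least 2 multi-exon transcripts of 1 gene with identical intron chains and with start or 3′ ends at least 100 nt apart, in a gene with at least 1 RPKM (reads per length of transcript and depth of library) in all 6 libraries. The assembly of 60887 transcripts held 1834 such sets, in 1786 of 10936 expressed gene models (16.3%). Without the limit on gene level it held 2519 sets, of 2525 same-intron sets of any end difference. The longest and the shortest form of each set are compared here, and the share of the longer form is its RPKM as a percentage of the RPKM of both.

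The 3′ end of a messenger RNA is made by cleavage of the nascent transcript and addition of a poly(A) tail, and many genes use more than 1 cleavage site. When both sites lie in the last exon past the stop codon, the protein is unchanged and the 3′ untranslated region is longer or shorter. It then has more or fewer binding sites for microRNAs and RNA-binding proteins. Stop codons were not located here. Nova1 is an RNA-binding protein of neurons that binds YCAY motifs, regulates alternative splicing and has been tied to the choice of poly(A) sites in brain. Beta cells, which make and secrete insulin, share many RNA-binding proteins with neurons.

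The Nova1 knockdown group had 3 libraries from rat primary beta cells given an siRNA against Nova1, and the control group had 3 libraries from such cells given a control siRNA. All cells were sorted by fluorescence from pancreas, were exposed to siRNA at 30 nM for 16 h, and had 48 h of recovery, per the labels' protocols. Each of 3 batches gave 1 library of each group, and no label ties a batch to particular animals. With batch as a block, the p-values below reflect how far the difference between groups varied from batch to batch. The age and strain of the rats were not used here, and a knockdown lowers Nova1 without removing it.

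Reads assigned to transcripts numbered 130, 95.4 and 146 M in knockdown batches 1, 2 and 3, against 292, 123 and 200 M in the controls of the same batches. The control library was the deeper one in every batch, so depth and group cannot be told apart. Nova1 had 7.76, 10.2 and 9.43 CPM (reads scaled to library size) in knockdown libraries, against 20.6, 21.5 and 17.4 CPM in control libraries. In RPKM it had 1.38, 2.38 and 1.81 in knockdown against 5.06, 2.83 and 2.03 in control libraries. The knockdown RPKM was the lower one in each batch, but the groups overlapped. None of 17 tested beta cell markers passed the gene test, in which 0.513% of all genes were higher and 1.2% lower in knockdown. The markers of stellate cells and fibroblasts summed to between 23.3 and 30.7 RPKM in knockdown libraries and between 9.19 and 21.2 RPKM in control libraries, with 1 of 7 higher in knockdown. Acinar markers summed to between 119 and 350 RPKM in knockdown and between 159 and 468 RPKM in control libraries, with 1 of 12 lower in knockdown. Immune markers summed to between 13.1 and 24.6 RPKM in knockdown and between 14.1 and 16.8 RPKM in control libraries, with 1 of 7 higher and 1 lower in knockdown. Markers of other islet endocrine cells summed to far more, between 7394 and 15789 RPKM in knockdown and between 5537 and 14488 RPKM in control libraries. Duct markers summed to between 140 and 209 RPKM in knockdown and between 122 and 163 RPKM in control libraries. Endothelial markers summed to between 1.19 and 2.45 RPKM in knockdown and between 1.18 and 2.43 RPKM in control libraries. In these last lists 0 genes passed. The part of these cells in the results below was not tested.

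Every set differed at its 3′ end. The 3′ end alone differed in 847 sets, both the start and the 3′ end differed in 987, and 0 sets differed at the start alone. In 1825 sets the shorter form was a reference transcript and the longer one was built by the assembly, and in the other 9 both were reference transcripts. The shorter form lay wholly inside the longer one in all 1834 sets. The longer form therefore stands for an extension of the annotated gene past its reference 3′ end, and in the larger class also upstream of its reference start.

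The added 3′ stretches were long. The median 3′ difference was 2236 nt, with the middle of the sets between 1316 and 3751 nt and the whole range from 107 to 20743 nt. Differences of 1000 nt or more were found in 1568 sets, and 6 sets lay under 500 nt. Counted once where 2 sets of a gene overlap, the added stretches covered 5.01 Mb. The last exon had a median length of 3083 nt in longer forms and 522.5 nt in shorter forms. It was under 200 nt in 402 shorter forms (21.9%) and in 0 longer forms. At the start, 285 sets had equal positions, the median difference was 119 nt, and 131 sets differed by 1000 nt or more, up to 7503 nt in Nudcd1.

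**Figure D1:**
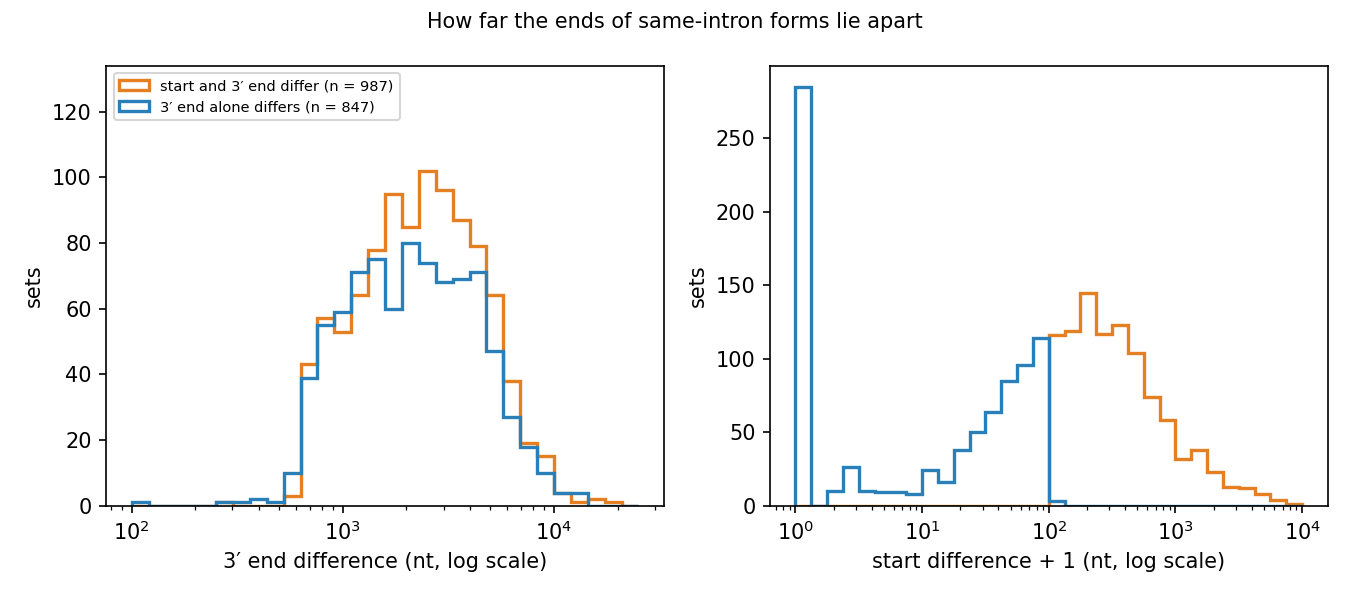
Number of sets (y axis) by the difference of their 3′ ends (left, nt on a log scale) and of their starts (right, nt plus 1 on a log scale), for the 987 sets that differ at start and 3′ end and the 847 that differ at the 3′ end alone. The 3′ differences of both classes centre near 2236 nt, and the peak at the left of the right panel holds the 285 sets with equal starts.

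The expressed sets just inside were Zfp715, a zinc finger gene whose 3′ ends lie 107 nt apart and whose 2 forms were listed at 0, and Gba2, a glucosylceramidase gene with 277 nt. Just outside were Smc3, a cohesin subunit with starts 33 nt apart, and Swsap1 with starts 40 nt apart. Of the added stretches, 217 lay over an exon of another gene model on the opposite strand and 16 over one on the same strand. Whether reads were assigned by strand is not stated in the sources used here, so reads over such exons cannot be told apart from the neighbour's, and 1602 stretches lay over neither.

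The 3 sets with the longest added stretches were in genes of both ends changed. Snx19, a sorting nexin, had 20743 nt, Ythdf3, a reader of N6-methyladenosine, 17020 nt, and Tatdn2, a nuclease-domain gene, 16982 nt. The longer form of Ythdf3 was listed at 0 in all 6 libraries, and that of Snx19 was above 0 in control 1 alone, at 0.906%. Tatdn2, by contrast, was mostly the longer form, with 81.4%, 100% and 81.1% in knockdown against 59.4%, 93.6% and 76.7% in control libraries, although its stretch lies over an opposite-strand exon. Abhd15, an adipocyte lipolysis gene with 13210 nt and an opposite-strand exon in its stretch, had 63.9%, 76.5% and 59.7% in knockdown against 51.6%, 64.7% and 58.9% in control libraries. In both genes the groups overlapped.

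Among sets with the 3′ end alone changed, Kcnb2, a voltage-gated potassium channel of the Kv2 family, had 12880 nt added. Its longer form took 41.4%, 82.2% and 28.9% in knockdown against 53.0%, 75.2% and 0% in control libraries. Cpped1, a phosphatase gene with 12217 nt added, was nearly all longer form, between 99.7% and 99.9% in every library. In Cntnap5c (13405 nt), a neurexin family gene, the longer form was listed at 0 wherever a share could be formed. In Lpp (13129 nt), a focal adhesion gene, both forms of the set were listed at 0. Over 1694 sets with a share in all libraries Spearman's rho between the length of the added stretch and the share was 0.06. These points share libraries and overlap in sequence with their partner forms.

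At the median over all sets, the longer form was the minor one. Its median share was 32.6%, 33.9% and 32.7% in knockdown libraries and 29.7%, 33.4% and 32.8% in control libraries of batches 1, 2 and 3. It took over 50% of the pair in all 6 libraries in 431 sets (25.4% of 1694) and under 50% in all 6 in 724 (42.7%). In the remaining 539 sets it lay on both sides of 50%, depending on the library. The longer form was listed at 0 throughout in 154 sets, the shorter form in 121 and both in 21. Both forms were above 0 in all 6 libraries in 843 sets.

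The share was lower in genes of higher level. With the sets cut into 5 equal groups by gene RPKM, in the lowest (up to 3.47 RPKM) the median share was 48.9% in knockdown and 47.6% in control, while in the highest (above 23.1 RPKM) it was 17.4% in knockdown and 16.9% in control. Sets with equal starts had a median of 8.26% in knockdown and 10.1% in control, against 49.8% in knockdown and 49.5% in control where starts lay 100 to 199 nt apart. In the 303 sets with starts 500 nt or more apart the median was again lower, 24.1% in knockdown and 22.6% in control. These are descriptions over sets, and estimates at 0 are part of them. Gene RPKM includes the RPKM of both forms, so gene level and share are not independent measures.

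**Figure D2:**
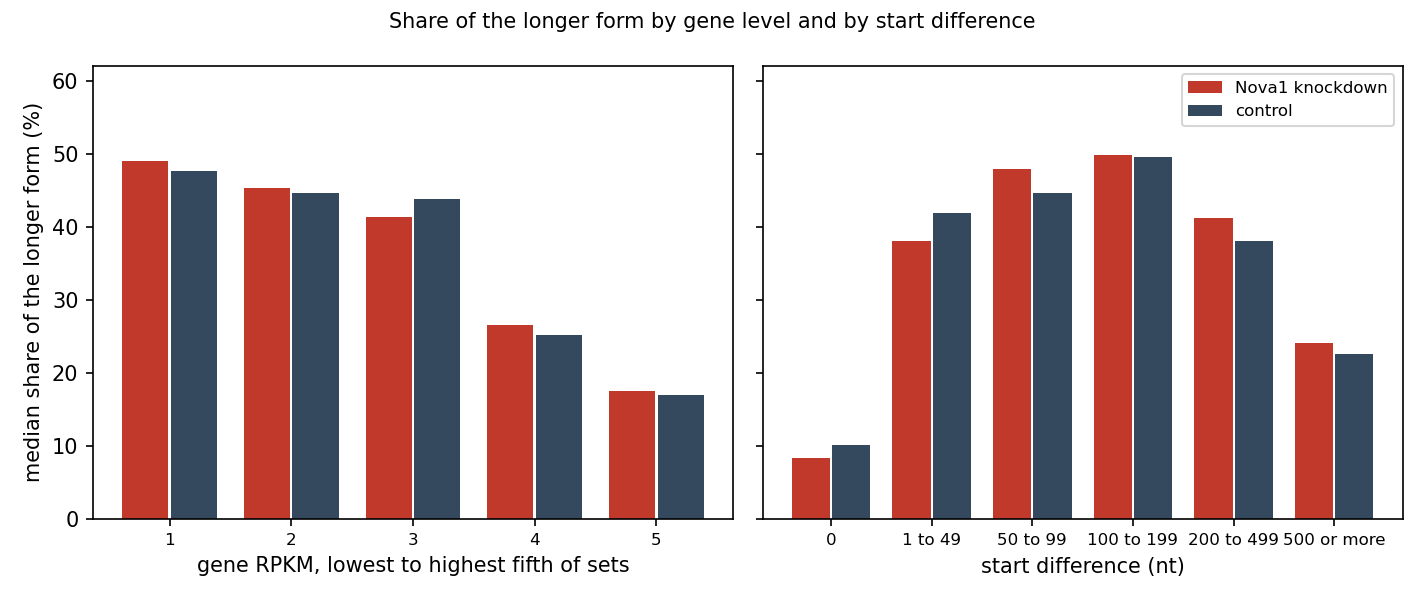
Median share of the longer form (y axis, %) in 5 equal groups of sets by gene RPKM (left, lowest to highest) and by start difference in nt (right), with Nova1 knockdown left of control in each pair of bars. The bars fall from near 48% to near 17% with gene level in both groups, and the sets with equal starts stand lowest in the right panel.

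How firmly the libraries fixed a share differed greatly between sets. The 6 shares of a set spread over a median range of 18.4 percentage points, over more than 50 points in 391 sets (23.1%), and under 5 points in 380. Serp1, a gene of the endoplasmic reticulum stress response with a mean of 443.6 RPKM, had 100%, 51.2% and 100% longer form in knockdown against 100%, 100% and 72.2% in control libraries. Slc7a2, a cationic amino acid transporter at 520.6 RPKM, had 31.5%, 2.18% and 29.5% in knockdown against 22.1%, 38.7% and 4.33% in control libraries. In these genes the set carried 28.2% (Serp1) and 18.0% (Slc7a2) of the gene's RPKM.

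In contrast, 32 of 1089 sets with a mean share between 10% and 90% varied by under 5 points over all 6 libraries. The 4 given here were named after their values were seen. Copg1, a subunit of the COPI vesicle coat, had 46.1% ± 2.03 longer form in knockdown and 45.5% ± 1.69 in control libraries (SD, n = 3 each). Ykt6, a SNARE of the Golgi, had 69.2% ± 1.34 in knockdown and 67.0% ± 0.922 in control libraries. Tmem167a, a small secretory pathway protein, had 17.3% ± 0.793 in knockdown and 17.1% ± 0.815 in control, and Rac1, a GTPase of the actin cytoskeleton, 51.3% ± 1.30 in knockdown and 51.3% ± 2.23 in control. For Copg1 the 95% interval of the log2 ratio of longer to shorter form, knockdown over control, ran from -0.84 to 0.91.

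Nova1 knockdown and control were compared within batches on the log2 ratio of the RPKM of both forms (each + 0.1), with limma fitted over 50410 pairs of transcripts of expressed genes and Benjamini-Hochberg adjustment over all of them. Both forms needed a mean of 0.1 RPKM, which left 1373 sets, 558 with the 3′ end alone changed and 815 with both ends changed. Of these, 0 passed the adjusted threshold of 0.05, with a smallest adjusted p of 0.907, and of all pairs 0 (0%) passed. At an unadjusted p under 0.05 stood 25 sets (1.82%), beside 4.7% of all pairs. In data simulated with the spread of these libraries the pair test called none of the changes put in, so the absence of calls does not show that shares were equal. By limma's diffSplice, a test of each transcript against the rest of its gene on estimated reads, 7 longer forms passed, which are described below.

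The intervals were wide. The median standard error of a set was 0.91 and its 95% interval reached a median of 2.49 to each side, both on the log2 scale, and in 6 of 1373 sets the interval lay wholly between -1 and 1. Those 6 sets, named after their values were seen, were Tmbim6, Ghitm, Copg1, Gad2, Camk2n1 and Cltb. Tmbim6, an inhibitor of cell death in the endoplasmic reticulum membrane, had 67.9%, 64.3% and 62.8% in knockdown against 62.6%, 65.7% and 68.6% in control libraries, with a log2 ratio of -0.04 (interval -0.84 to 0.75). Camk2n1, an inhibitor of CaM kinase II, had 60.2%, 69.6% and 56.8% in knockdown against 58.5%, 61.7% and 55.9% in control libraries (log2 ratio 0.22, interval -0.52 to 0.96). Gad2, which makes GABA in beta cells, had 7.76% ± 0.684 in knockdown and 7.85% ± 0.966 in control libraries (SD, n = 3 each).

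Among 1343 tested sets with a share in every library, all knockdown values lay above all control values in 67 sets (4.99%, beside 4.34% of all pairs) and below them in 30 (2.23%, beside 3.61%). The groups did not overlap and differed by at least 20 points in 25 sets (1.86%, beside 5.05%). The median change, knockdown minus control, was 1.08 percentage points over the tested sets, and 1.06, 0.25 and 0 points in batches 1, 2 and 3. It was 0.53 points with the 3′ end alone changed, 1.28 points with both ends changed and 0.11 points in 49033 tested pairs with other introns. The median SD of a set's share was 7.81 points in knockdown and 7.70 points in control. In the other pairs the median SD was 16.3 points in knockdown and 15.6 points in control.

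**Figure D3:**
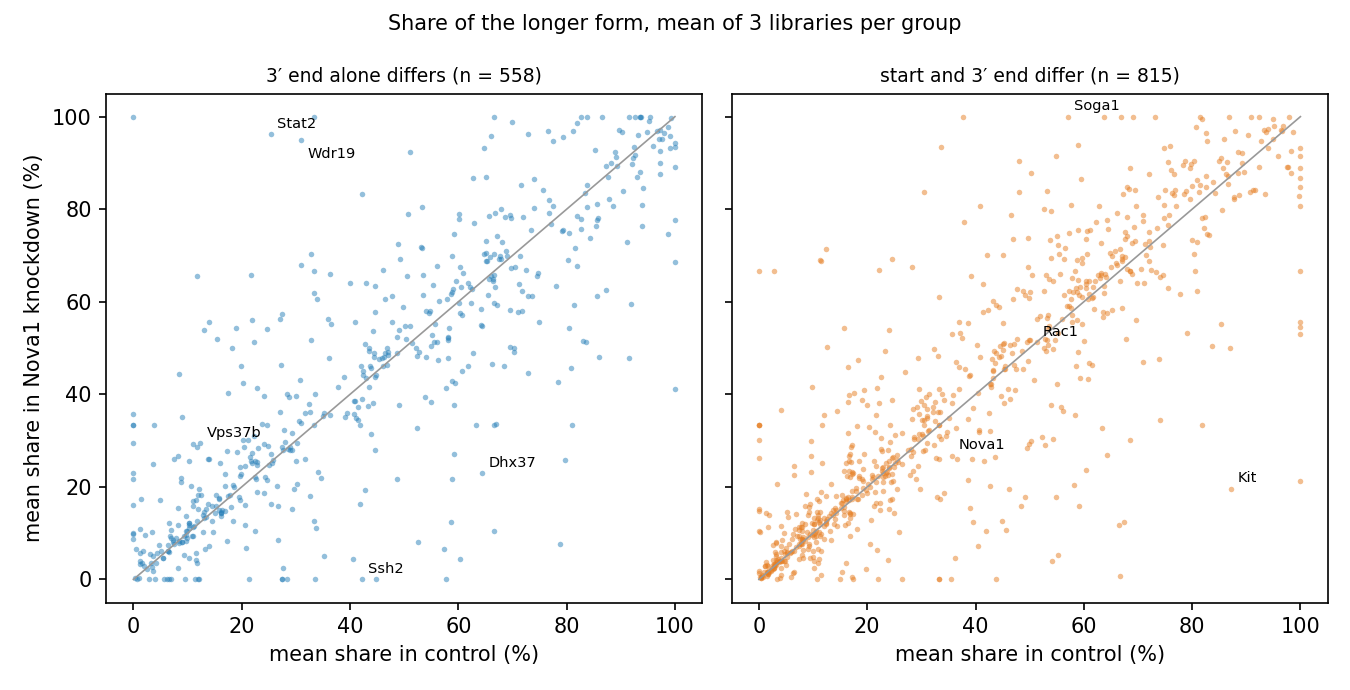
Mean share of the longer form (%) in Nova1 knockdown (y axis) against control (x axis) in the 558 tested sets with the 3′ end alone changed (left) and the 815 with start and 3′ end changed (right), 1 point a set, with the line of equality. Most points follow the line, and the labelled Stat2, Wdr19 and Soga1 lie above it and Dhx37, Ssh2 and Kit below it, none of them past the adjusted threshold of the pair test.

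The sets with the smallest unadjusted p are listed for their values, since all have an adjusted p of 0.907 in the limma pair test. Stat2, a transcription factor of interferon signalling, had 100%, 100% and 88.5% longer form in knockdown against 24.3%, 19.6% and 32.1% in control libraries, for a 3′ stretch of 620 nt. Its groups stood far apart, and its unadjusted p of 0.00593 in the limma fit was the smallest of the sets. Wdr19, a subunit of the ciliary transport complex IFT-A, had 85.1%, 100% and 100% in knockdown against 44.3%, 11.6% and 36.8% in control libraries. Sesn3, a sestrin that restrains mTORC1, had 97.0%, 96.6% and 97.0% in knockdown against 82.1%, 79.2% and 82.5% in control libraries. The Sesn3 groups were narrow and separate, with a log2 ratio of 2.40 ± 0.66 (SE).

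Lower shares in knockdown were seen in Klhdc10, a kelch protein, where the longer form was listed at 0 in all 3 knockdown libraries and had 2.19%, 13.9% and 2.38% in control libraries. Acer3, an alkaline ceramidase, had 16.3%, 21.2% and 0% in knockdown against 32.7%, 100% and 43.3% in control libraries. Prosc, a pyridoxal phosphate binding protein, and Exoc4, a subunit of the exocyst that tethers secretory vesicles, overlapped between groups. Prosc had 0%, 100% and 0% in knockdown against 79.5%, 98.6% and 64.9% in control libraries, and its set held 8.60% of the gene's RPKM. Exoc4 had 22.6%, 100% and 33.3% in knockdown against 0%, 38.1% and 8.09% in control libraries.

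With both ends changed, Mob1b, a Hippo pathway adaptor, had 99.5%, 92.6% and 97.1% in knockdown against 86.3%, 82.8% and 78.5% in control libraries, without overlap. Zfyve9, an endosomal anchor for SMAD proteins, had 79.7%, 55.0% and 65.6% in knockdown against 40.0%, 19.8% and 6.66% in control libraries, with an opposite-strand exon in its stretch. Soga1 had 100% in every knockdown library against 66.6%, 86.2% and 18.4% in control libraries. Its control 3 share rests on very low values, 0.0016 RPKM of the longer and 0.0072 RPKM of the shorter form. Ppm1k, a mitochondrial phosphatase of branched-chain amino acid breakdown, had its longer form listed at 0 in knockdown libraries, against 42.2%, 37.0% and 0% in control libraries.

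The remaining 4 of this group had an undefined share or spread widely within a group. Stxbp5, or tomosyn, a brake on SNARE assembly in secretion, had 16.9%, 26.6% and 20.4% in knockdown against 100% in controls 2 and 3, with both forms listed at 0 in control 1. Arnt, a partner of hypoxia factors, had 100%, 80.6% and 100% in knockdown against 0% and 67.2% in controls 2 and 3. The Arnt set held 7.78% of the gene's RPKM. Armc10 had 100%, 100% and 6.52% in knockdown against 21.9% and 1.20% in controls 1 and 3, with an opposite-strand exon in its stretch. Cdc27, a subunit of the anaphase-promoting complex, had 100%, 0% and 100% in knockdown against 0%, 0% and 8.24% in control libraries.

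By diffSplice, 7 of 1432 longer forms passed (0.489%, beside 0.309% of 31429 transcripts), 4 higher and 3 lower in knockdown, and 2 of 1546 shorter forms. The shorter forms are those of Cd81 and Dhx37, genes with 2 transcripts, where the tests of both forms mirror each other and are not separate results. At an unadjusted p under 0.05 stood 10.2% of longer forms, beside 9.01% of all transcripts. The 7 were named after their values were seen, and 5 of them have only the 3′ end changed. With the low-read filter kept from all 6 libraries, 0 of the 7 passed when any batch was left out. With that filter set anew in 4 libraries, between 15 and 21 longer forms passed, of which 3 or 4 were among the 7, and Dhx37, Pdk1 and Cd81 were not. Without the batch block 5 longer forms passed, 4 of them among the 7 (Dhx37, Itga3, Ssh2 and Vps37b).

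Dhx37, a helicase of ribosome assembly, had the steadiest large difference. Its longer form took 25.7%, 21.2% and 21.8% in knockdown against 64.2%, 64.2% and 64.6% in control libraries. It adds 3099 nt at chromosome 12, 38492291 to 38495389 (Rnor_5.0, plus strand), past a reference 3′ end, over no exon of another gene model. The longer form had 0.907, 0.900 and 0.780 RPKM in knockdown against 2.03, 2.19 and 1.41 RPKM in control libraries. The shorter form moved the other way, with 2.63, 3.34 and 2.80 RPKM in knockdown against 1.13, 1.22 and 0.771 RPKM in control libraries. The groups did not overlap for either form, and the gene total, tested on reads, did not pass (limma voom adjusted p of 0.999). In RPKM the gene total was 3.53, 4.24 and 3.58 in knockdown against 3.17, 3.41 and 2.18 in control libraries, without overlap. The diffSplice log2 difference was -2.58 with an adjusted p of 0.0346, and it was between -2.52 and -2.72 when a batch was left out. The diffSplice adjusted p was then between 0.138 and 0.196 with the filter of all 6 libraries and between 0.0609 and 0.123 with the filter set anew. The pair test gave -2.44 ± 0.84 (SE) with a limma adjusted p of 0.907.

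Pdk1 and Vps37b were higher in knockdown. Pdk1, a kinase that inhibits pyruvate dehydrogenase, had 27.9%, 21.5% and 16.2% longer form in knockdown against 13.1%, 6.32% and 6.88% in control libraries, without overlap. The diffSplice log2 difference of Pdk1 was 1.78 with an adjusted p of 0.0367, which was 0.0787 in diffSplice without the batch block. Its 3594 nt stretch lies at chromosome 3, 65046274 to 65049867 (Rnor_5.0, plus strand), and its shorter form had 4.01, 3.75 and 4.49 RPKM in knockdown against 3.80, 4.19 and 4.52 RPKM in control libraries. Vps37b, a subunit of the endosomal sorting complex ESCRT-I, had 24.4%, 37.8% and 26.0% in knockdown against 14.1%, 16.1% and 6.94% in control libraries, also without overlap. Its diffSplice log2 difference was 1.66 with an adjusted p of 0.0405.

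Cd81 and Ssh2 have stretches that touch other genes. Cd81, a tetraspanin, had 11.3%, 12.6% and 11.5% in knockdown against 7.86%, 8.54% and 8.54% in control libraries, a small and steady difference with a diffSplice log2 value of 0.55 and an adjusted p of 0.0346, which was 0.426 in diffSplice without the batch block. Its 8088 nt stretch runs over other gene models, Tssc4 on the same strand and Trpm5 on the opposite strand. Trpm5, a cation channel of beta cells, had between 79.9 and 108 RPKM in knockdown and between 69.9 and 92.8 RPKM in control libraries. Its part in the Cd81 value was not tested. Ssh2, a phosphatase that activates cofilin, had its longer form listed at 0 in all knockdown libraries against 48.1%, 29.8% and 48.7% in control libraries. The longer form of Ssh2 held 1227, 525 and 840 estimated reads in control libraries 1, 2 and 3. Its stretch lies over a same-strand gene model that was itself listed at 0 in every library.

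In the last 2 the call is not about the ends of the set. Itga3, an integrin alpha subunit, had 100% longer form in all 6 libraries, since the reference form was listed at 0. Its longer form had 1.41, 1.71 and 1.09 RPKM in knockdown against 28.5, 46.0 and 18.6 RPKM in control libraries, with a gene total between 22.2 and 46.4 RPKM in knockdown and between 19.9 and 49.0 RPKM in control libraries. Syt16, a synaptotagmin relative, had 36.7%, 89.2% and 53.7% in knockdown against 41.5%, 67.4% and 65.9% in control libraries, which overlap, and its set held 8.26% of the gene. Neither set was in the pair test.

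**Figure D4:**
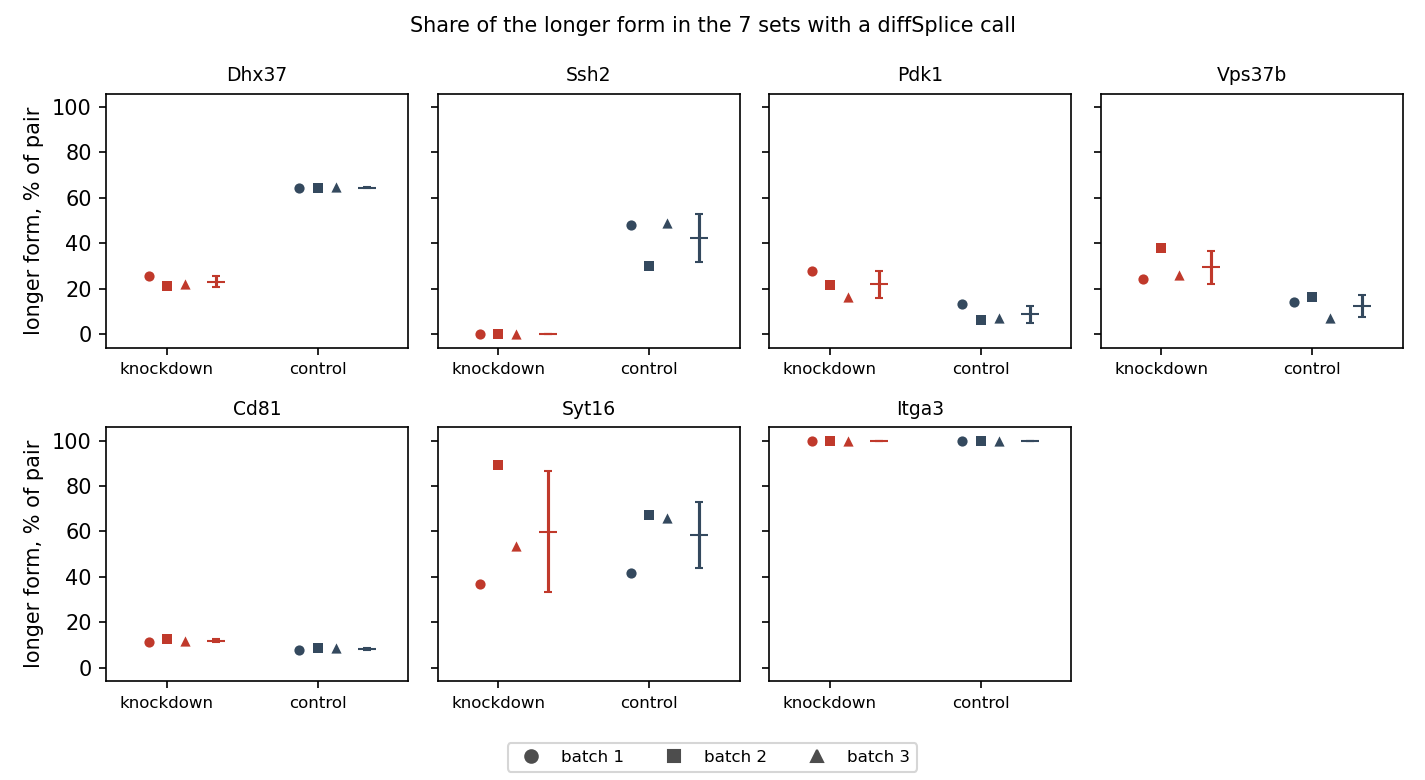
Share of the longer form (y axis, % of the pair) in each library of the 7 sets with a diffSplice call, knockdown left and control right, with a symbol for each batch and bars for mean ± SD (n = 3). The groups are apart in Dhx37, Ssh2, Pdk1, Vps37b and Cd81, overlap in Syt16, and sit at 100% in Itga3.

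Nova1 itself holds a set, with starts 660 nt and 3′ ends 6461 nt apart at chromosome 6 (Rnor_5.0, minus strand). Its longer form took 17.6%, 33.9% and 28.8% in knockdown against 7.12%, 37.0% and 63.1% in control libraries, which overlap (log2 ratio -0.05, interval -3.02 to 2.91). The shares of controls 2 and 3 rest on very low values, 0.044 and 0.017 RPKM of the longer form. The shorter form had 0.075 and 0.0099 RPKM there, against 3.39 RPKM in control 1. Of the RNA-binding list, 41 genes were tested, and 0 were higher (beside 0.513% of all genes) and 2 lower (beside 1.2%) in the gene test. The 2 lower genes include Nova1, the target of the siRNA, and 5 genes of the list hold a set. Hnrnpk, an abundant RNA-binding protein, had 0%, 0.328% and 13.4% in knockdown against 7.87%, 0% and 8.58% in control libraries, and the longer form of Tial1 was listed at 0 throughout. Nova2, the paralog of Nova1, had 27.2%, 19.3% and 93.0% in knockdown against 96.5%, 55.5% and 46.7% in control libraries, and Elavl1 100%, 100% and 87.3% in knockdown against 79.8%, 97.6% and 20.8% in control libraries.

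Of 25 tested genes of the list for 3′ end formation, 0 were higher (beside 0.513% of all genes) and 1, Nova1, was lower (beside 1.2%) in the gene test, and 6 hold a set. Pcf11, a cleavage factor subunit, had 33.4%, 37.7% and 43.0% in knockdown against 32.3%, 37.4% and 37.6% in control libraries. Cpsf2, of the complex that cleaves the transcript, had 86.4%, 77.8% and 86.6% in knockdown against 89.8%, 87.3% and 75.4% in control libraries. Wdr33, which helps bind the poly(A) signal, had 0%, 3.08% and 7.68% in knockdown against 14.8%, 11.8% and 8.42% in control libraries. Its groups did not overlap, and its adjusted p in the limma pair test was 0.907. Nova2, Elavl1, Pcf11, Cpsf2 and Wdr33 were named after their values were seen.

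Genes of insulin secretion and beta cell identity held 14 sets in 12 of the 52 genes of their list, of which 0 passed the gene test as higher (beside 0.513% of all genes) or lower (beside 1.2%). Slc30a8, the zinc transporter of insulin granules and the highest gene with a set (558.9 RPKM), had 4.31%, 1.78% and 3.94% of a form with 5574 nt more 3′ sequence in knockdown against 1.02%, 1.81% and 0.632% in control libraries. Those groups overlap, with a log2 ratio of 1.56 and an interval from -0.12 to 3.25. Syt7, a calcium sensor of exocytosis, had 9.62%, 6.86% and 9.93% in knockdown against 7.88%, 6.21% and 8.73% in control libraries. In Pdx1, the transcription factor that maintains beta cells, the pair was almost wholly the reference form. The longer form took at most 1.13% of the pair in knockdown and 0.457% in control libraries. The Pdx1 set held 59.8% of the gene's RPKM.

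Isl1, an islet transcription factor, had 34.0%, 38.7% and 38.1% in knockdown against 33.3%, 28.0% and 31.8% in control libraries, without overlap and with an adjusted p above the threshold of the limma pair test. Foxo1, a target of insulin signalling, had 17.6%, 11.9% and 12.8% in knockdown against 17.6%, 16.8% and 15.8% in control libraries. The longer form of Cacna1d, an L-type calcium channel, was listed at 0 wherever a share could be formed, that of Akt2 was above 0 in control 1 alone, and that of Rims2 in no library. Insr, the insulin receptor, had a share in 4 libraries, 0%, 0% and 76.8% in knockdown against 41.5% in control 3.

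**Figure D5:**
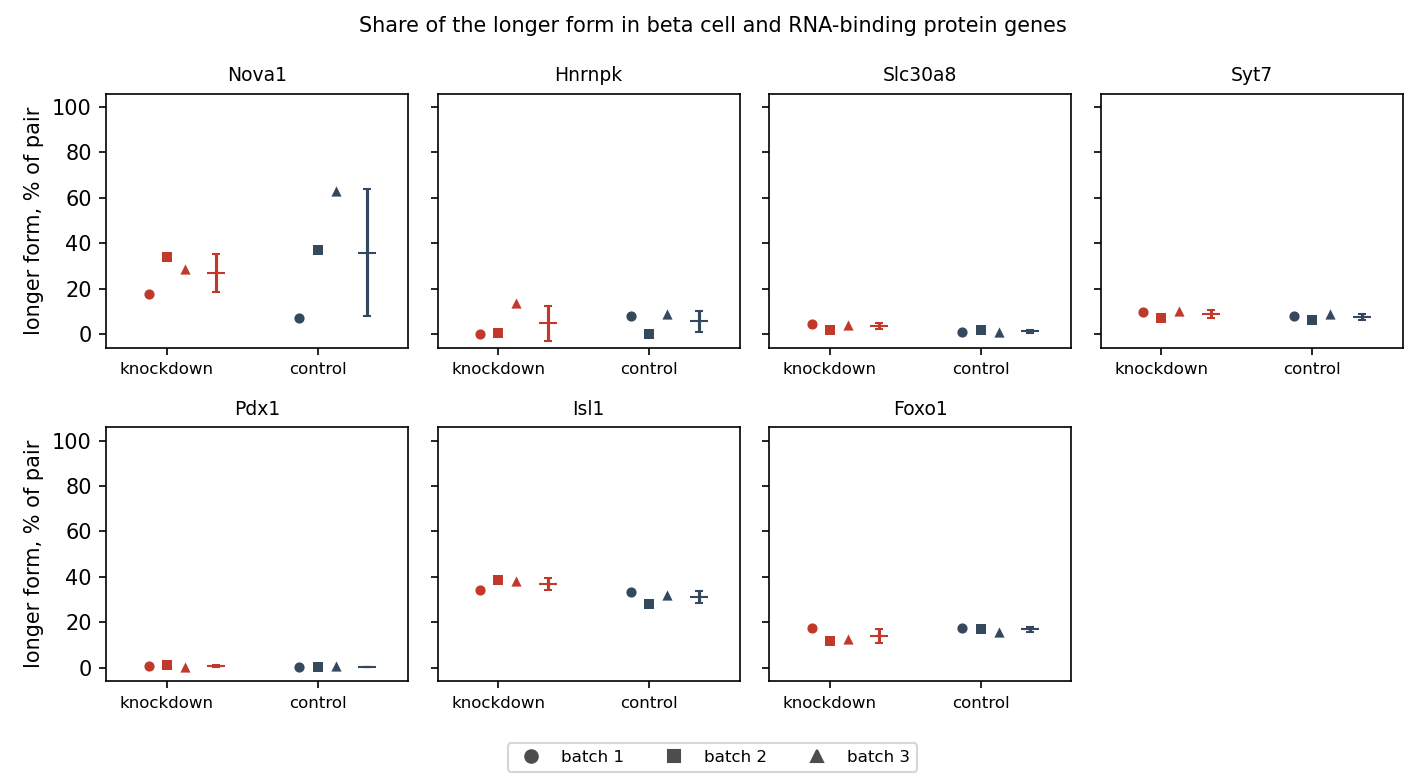
Share of the longer form (y axis, % of the pair) in each library for 7 genes of the beta cell and RNA-binding lists, knockdown left and control right, with a symbol for each batch and bars for mean ± SD (n = 3). Pdx1, Slc30a8 and Syt7 stay under 10% in every library, and the Nova1 control values run from 7.12% to 63.1%. The 63.1%, in control 3, rests on 0.017 RPKM of the longer and 0.0099 RPKM of the shorter form.

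Actb and Atp5a1 show both extremes among highly expressed genes. The longer form of Actb, cytoplasmic beta-actin, took 93.7%, 99.3% and 94.4% in knockdown against 100%, 97.3% and 100% in control libraries, for 616 nt of added 3′ sequence. For Atp5a1, a subunit of ATP synthase, a longer form with 670 nt more was listed at 0 in all libraries. Syt13, a synaptotagmin without calcium binding, had 66.7%, 53.9% and 62.3% in knockdown against 54.5%, 55.3% and 75.3% in control libraries, which overlap.

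The totals of genes that hold a set were also compared, by limma voom on summed reads with adjustment over 15983 genes. Higher in knockdown were 20 of 1786 genes, beside 0.513% of all genes, and lower were 29, beside 1.2% of all genes. Together these were 2.74% of the 1786. Genes with a set had at least 1 RPKM in all 6 libraries, which was not asked of all genes. The sets of genes are therefore unlike in level, and the part of level in these shares was not tested. Nova1 was lower, with a log2 fold change of -1.12 ± 0.11 (SE) and an adjusted p of 0.0378. Examples named after their values were seen are Idi1, an isomerase of isoprenoid synthesis (log2 fold change -0.69), Edem1, which sends misfolded glycoproteins to degradation (-0.49), Ulk2, a kinase that starts autophagy (0.52), and Ptch1, the Hedgehog receptor (0.39). The Nova1 adjusted p in limma became 0.154 without batch 1, 0.164 without batch 2, 1.00 without the batch block and 0.334 on log2(RPKM + 1), with the same direction each time. With factors taken from all genes instead of those past the low-read filter, 8 of the 1786 passed in limma in place of 49. Without batch 1, 2 or 3, 1, 0 and 3 passed in limma.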

How the data were processed

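Libraries came from polyadenylated RNA (integrity number 7.5 or more) and gel products of 200 bp, per the labels' protocols. TopHat and the build Rnor_5.0 are named in the submitters' processing notes. The authors deposited, for each transcript and library, an estimated read count and an RPKM value, held as text attributes of an assembly. No source used here names the program that split reads between transcripts, or says whether it used strand.

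Introns were read from exon positions. Shares and log2 ratios (+ 0.1 RPKM) were computed from RPKM. Tests used limma 3.58.1 in R 4.3.3 with batch as a block (2 residual degrees of freedom): a trend fit for ratios, voom for gene totals, and diffSplice for transcripts. Features needed the equivalent of 10 reads in at least 3 of 6 libraries and a total of 15. Libraries were scaled by trimmed means of M values (trims of 30% for M and 5% for A). All were tested on simulated data, where the pair test called the changes put in at a small spread but none at the spread of these libraries. Because reads are held as text, no count model was used.

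The sets and lists were chosen with earlier results of these data known. After call counts had been seen, 2 settings were altered to follow that earlier processing: scaling factors were taken from features past the filter instead of all features (274 called genes in place of 72), and fits without a batch set the filter anew. Both versions are given.

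Named genes are, by class and with a symbol, the 8 sets with the smallest p (since no set passed), the 4 with the largest end difference, the 4 of highest gene RPKM, up to 6 from the lists, those nearest the limit, and Nova1. A gene this rule takes is not reported here. Batch numbers come from the labels, and in log2 ratios deviations of the libraries of a batch correlated at 0.11, 0.22 and 0.11. Intervals cover the spread between libraries only.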

Additional observations from a re-analysis of the deposited data

How the results depend on the processing

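With the batch as a block, 0 sets passed the pair test in either class. The count was also 0 with pseudocounts of 1 and 0.01 RPKM, other limits on the forms, the ends and the gene, without the replicate block, without each batch, on estimated reads, and with added stretches over no other exon, which says nothing of stability, since the pair test also called none of the changes put into data simulated with this spread. By diffSplice 5 sets with the 3′ end alone changed and 2 with both ends changed passed, and those with both ends changed were not in the pair test. Over the 1283 tested longer forms in that comparison the pair test passed 0. Without each batch, between 0 and 21 longer forms passed diffSplice, and which depends on the low-read filter: 0, 0 and 0 with the filter of all 6 libraries, and 19, 15 and 21 with the filter set anew. Without the replicate block 5 passed, 4 of them among the 7, and Cd81 (adjusted p of 0.426 in diffSplice), Pdk1 (0.0787) and Syt16 (0.0954) did not. Both versions of that filter, the choice of features behind the scaling, the diffSplice repeats and the restriction to stretches over no other exon were chosen after seeing the data.

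The median change with the 3′ end alone changed was 0 points with no filter on the forms, 1.15 with each form at 0.5 RPKM or more, -0.00037 with ends at least 50 nt apart, 1.08 with at least 200 nt, 0.765 in genes of 5 RPKM or more, and between 0 and 0.529 without a batch. With both ends changed it was 0.39 with no filter. Called genes over all genes numbered 274, against 0 without the replicate block, 0 by limma-trend on log2(RPKM + 1), 91 by library totals, 171 with no filter, 72 with scaling from all genes and between 0 and 78 without a batch. Among genes with a set the same settings gave 49, against 0, 0, 15, 27, 8 and between 0 and 5. At an unadjusted p under 0.05 stood 521 genes without the block and 3193 by limma-trend, against 3816. The gene totals of Idi1, Edem1, Ulk2 and Ptch1 kept their direction in all settings run, and none of them passed without the block, by limma-trend or without batch 1 or 2, nor did Edem1 and Ptch1 with scaling from all genes. Gene totals were rerun for the genes whose totals are printed.

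Some log2 ratios that did not pass changed sign. By diffSplice these were Tmbim6 (0.067), Hnrnpk (0.40), Stxbp5 (0.077), Slc7a2 (0.18), Syt7 (-0.20), Isl1 (-0.092) and Nova1 (1.99), and Nova1 had 0.12 with a pseudocount of 1 RPKM. Without a batch they ran from -0.061 to 1.57 in Kcnb2, -0.23 to 0.12 in Tmbim6, -2.94 to 1.45 in Hnrnpk, -2.03 to 1.94 in Slc7a2, -4.89 to 4.33 in Serp1, -0.48 to 0.33 in Syt13, -0.21 to 1.45 in Pdx1, -2.52 to 0.14 in Insr, -1.61 to 1.03 in Gba2 and -0.89 to 0.52 in Nova1. The Dhx37 gene total was 0.0024 without the replicate block, 0.30 by limma-trend, 0.056 by library totals and between -0.15 and 0.093 without a batch. The cause of these changes was not tested.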
